A study of Mus musculus with 12 samples.

Results

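The genes described here are 8 that mouse embryonic stem (ES) cells transcribe and most other cells do not: Dppa2, Dppa4, Dppa3 and Dppa5a of the developmental pluripotency associated group, and Tcl1, Rex2, Fbxo15 and Tdh. They were chosen by name, as the rows of the deposited count table that carry these symbols. All 8 were found among its 24421 gene rows, and all 8 were among the 15281 genes with enough counts to be tested. Polyadenylated RNA was counted in 12 libraries of the E14 ES cell line, in 4 groups of 3. WT FBS cells were wild type and grown for 2 weeks on gelatin in medium with serum (FBS) and the cytokine LIF. KO FBS cells were a Mettl3 knockout in the same medium. WT paused and KO paused cells were the same 2 genotypes kept for 2 weeks with INK128, an inhibitor of the growth kinase mTOR, at 200 nM. All groups shared the E14 background and LIF, and the labels do not give the deleted part of Mettl3, the number of knockout clones, or whether replicates were separate cultures. The p-values therefore measure the spread between these libraries, which may be technical.

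METTL3 is the catalytic subunit of the enzyme that writes N6-methyladenosine (m6A) on messenger RNA, and inhibiting mTOR brings ES cells into a dormant state like that of the delayed blastocyst. The 8 genes do different work in the cell that they mark. DPPA2 and DPPA4 are paired nuclear proteins that bind CpG-rich promoters, keep developmental genes free of DNA methylation and are needed for the totipotency factor Dux. DPPA3 (also Stella or PGC7) is a germ-cell and egg protein that holds UHRF1, the recruiter of maintenance DNA methylation, off chromatin. DPPA5A (ESG1) is a small RNA-binding protein with a KH domain. TCL1 binds the kinase AKT and raises its activity. REX2 belongs to a large family of zinc finger proteins. FBXO15 is an F-box protein, the substrate-binding subunit of an SCF ubiquitin ligase, and its gene is a direct target of OCT4 and SOX2 that served as the reporter in the first reprogramming screens. TDH, threonine dehydrogenase, starts the mitochondrial breakdown of threonine into glycine and acetyl-CoA on which mouse ES cells depend.

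Positions are those of GENCODE vM21 on GRCm38. Dppa4 (chr16:48283733-48294237) and Dppa2 (chr16:48303908-48319723) lie head to tail on the plus strand, with 9670 bases between the end of the first and the start of the second. The other genes are scattered. Dppa3 is at chr6:122626410-122630272 and Rex2 at chr4:147021850-147060794, both on the plus strand, and Fbxo15 is at chr18:84934782-84981473, also on the plus strand. Dppa5a (chr9:78367052-78368177), Tcl1 (chr12:105216750-105222793) and Tdh (chr14:63492347-63509092) are on the minus strand. Counts cover whole genes and all exons, so no exon or UTR is resolved.

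RefSeq promoter windows (GRCm38.p6) were available for only Tcl1 and Rex2 of the 8 genes, and the 250 bases before each RefSeq start are shown. These 2 genes both rose with pausing on the relative scale and moved in opposite directions in the knockout. RefSeq and GENCODE place the Tcl1 start differently, so its window overlaps the GENCODE span given above. The Tcl1 window is chr12:105222738-105222987, minus strand, printed 5′ to 3′ in lower case with nothing marked.

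Tcl1: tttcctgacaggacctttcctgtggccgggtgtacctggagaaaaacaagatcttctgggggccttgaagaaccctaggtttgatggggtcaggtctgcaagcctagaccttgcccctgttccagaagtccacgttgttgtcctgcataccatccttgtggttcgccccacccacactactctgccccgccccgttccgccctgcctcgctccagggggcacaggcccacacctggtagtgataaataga

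The Rex2 window (chr4:147021600-147021849, plus strand) is set beside that of Zfp600 (chr4:146156577-146156826, plus strand), the closest of the 32851 windows compared. Capitals mark the 4 bases at which they differ.

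Rex2: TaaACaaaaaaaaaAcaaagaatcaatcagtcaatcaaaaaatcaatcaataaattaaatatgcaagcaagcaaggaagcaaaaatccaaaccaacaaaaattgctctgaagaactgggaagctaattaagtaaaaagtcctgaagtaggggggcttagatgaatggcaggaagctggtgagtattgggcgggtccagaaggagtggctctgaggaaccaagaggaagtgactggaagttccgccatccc

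Zfp600: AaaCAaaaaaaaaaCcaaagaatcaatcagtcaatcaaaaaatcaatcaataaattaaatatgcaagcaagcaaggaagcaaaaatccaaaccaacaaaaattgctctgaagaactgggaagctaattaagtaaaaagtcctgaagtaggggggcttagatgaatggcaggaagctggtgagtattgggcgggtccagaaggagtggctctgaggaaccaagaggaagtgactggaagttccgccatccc

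The Tcl1 window held 7 CG dinucleotides, and 53.7% of all windows of this length held fewer. The Rex2 window held 2, and 18.8% held fewer. Neither window had the octamer ATGCAAAT bound by OCT4 or the E-box CACGTG on either strand, which 1.6% and 6.02% of all windows had. The near identity of Rex2 and Zfp600 went beyond the promoter. Of the 50-base stretches in the Rex2 transcript, 90.29% also occurred in another annotated gene and 81.69% occurred in Zfp600, so Rex2 counts could not be separated from those of its copies and are reported as uncertain. The corresponding share was 38.6% for Dppa5a, 35.94% for Dppa4, 29.07% for Dppa2, 17.73% for Dppa3 and 15.01% for Tdh, and 0 for Tcl1 and Fbxo15. Most of the other genes sharing these stretches had no row of the same name in the count table. Rows under older symbols were not searched for, so some of these copies may have one. An exception for Dppa5a was Pigp, which held 12.28% of its stretches and stood at 7.74 CPM in KO paused cells. The strand setting of the counting is not given in the sources used here. Reads of Fbxo15 and of Timm21 on the opposite strand, and of Tdh and Gm17232, may be counted for either gene. Rex2 also overlaps Gm13153 on its own strand and C230088H06Rik and Gm26573 on the other.

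The libraries held 10615548 to 39566713 counts. Each comparison was made on 2 scales. The relative scale divides by all gene counts (TMM-scaled CPM, counts scaled to a common library total), and shows how a gene moved compared with most others. The per-cell scale divides by the counts of the ERCC spike-in RNAs, which were added to RNA extracted from equal numbers of cells and do not correct losses before that step. Gene counts per ERCC count were 72.4 to 74.6 in FBS and 29.0 to 37.4 when paused in WT libraries, against 47.4 to 93.5 in FBS and 36.5 to 40.3 when paused in KO libraries, and every paused library lay below every FBS library. The median tested gene accordingly moved by -1.05 log2 with pausing in WT and -0.72 in KO cells on the per-cell scale, and by -0.02 and 0.03 on the relative scale. Fewer cells of a type and less RNA per cell of that type cannot be told apart in such bulk samples.

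Replicate 1 of WT FBS stood apart: 2936 of the 15281 tested genes were more than 2-fold above or below the average of replicates 2 and 3. Dppa2 (44.2 CPM against a mean of 105) and Dppa3 (2.41 against 6.25) were among them. The same count was not made for other libraries. Replicate 1 was also the shallowest of its group, with 11863803 gene counts against 39034079 and 30238281, which widens such ratios for genes with few counts. Results that use WT FBS are therefore given with and without replicate 1 where it matters. The ribosomal precursor Rn45s took 12.9% to 28% of gene counts and was highest in replicate 1 of every group. Mettl3 RNA was 33.9 ± 3.17 CPM in FBS and 35.9 ± 2.85 when paused in WT libraries, against 27.2 ± 1.61 in FBS and 30.1 ± 1.31 when paused in KO libraries (mean ± SD, n = 3), and since the deleted part is not given this level does not check the genotype. On the Y chromosome, Eif2s3y, Ddx3y, Kdm5d and Uty had 593 to 3124 counts each in the 6 KO libraries and 0 to 7 in the 6 WT libraries. The genotypes thus differed in Y-chromosome RNA too, and effects of Mettl3 loss and of other differences between the cell populations cannot be told apart.

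The 7 ES cell markers, Pou5f1 (OCT4), Sox2 and Nanog among them, were present in every group at a summed 2378 to 3715 CPM. The 8 trophoblast markers summed to 47.1 to 74.1 CPM in FBS and 32.2 to 48.2 when paused in WT libraries, against 193 to 249 in FBS and 55.9 to 63.9 when paused in KO libraries. The 8 extraembryonic endoderm markers summed to 50.7 to 104 CPM in FBS and 14.2 to 20.5 when paused in WT libraries, against 28.2 to 31.9 in FBS and 25.1 to 26.6 when paused in KO libraries. The 6 neural markers summed to 69.3 to 141 CPM in FBS and 179 to 232 when paused in WT libraries, against 144 to 176 in FBS and 252 to 288 when paused in KO libraries. Mean Sox1 of WT libraries went from 17.3 to 123 CPM with pausing, while Nes went from 28.3 to 7.47 and Neurod1 from 2.66 to 0.985. Relative to other genes, 1 neural marker rose and 2 fell with pausing in WT cells (edgeR adjusted p below 0.05), with a median of 0.07 log2. By the same test 4 rose and 1 fell in KO cells, with a median of 1.07. The 7 fibroblast markers summed to 4.43 to 7.52 CPM in FBS and 0.745 to 1.66 when paused in WT libraries, against 15.5 to 20.1 in FBS and 4.93 to 6.92 when paused in KO libraries. The 6 markers of primed pluripotency summed to 116 to 367 CPM in FBS and 231 to 378 when paused in WT libraries, against 422 to 503 in FBS and 323 to 353 when paused in KO libraries. This sum hides opposite changes. With pausing, mean Lefty2 of WT libraries went from 61.6 to 218 CPM, while means of Dnmt3b, Pou3f1, Otx2, T and Fgf5 became lower. Relative to other genes, 1 primed marker rose and 3 fell with pausing in WT cells (edgeR adjusted p below 0.05), with a median of -1.21 log2. The KO counts were also 1 and 3, with a median of -0.43. Lum was at 0 in all 6 WT libraries and Postn in the 3 WT paused libraries, both fibroblast markers, and no other marker was at 0 in all 3 libraries of a group. The part of other cell types in the results was not tested.

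Per kilobase of exon, which allows levels of different genes to be compared, Dppa5a was the most abundant of the 8 in WT FBS cells, at 483 CPM per kb, followed by Tdh at 152, Dppa4 at 64.1 and Dppa2 at 34.6. Fbxo15 (15.2), Tcl1 (10.4), Dppa3 (5.57) and Rex2 (0.597) were lower. In KO paused cells the order had changed. Tdh led at 142 CPM per kb, Dppa4 (59.6) and Dppa2 (25.9) followed, and Dppa5a had dropped below Fbxo15 (21.1) to 18.3.

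**Figure D1:**
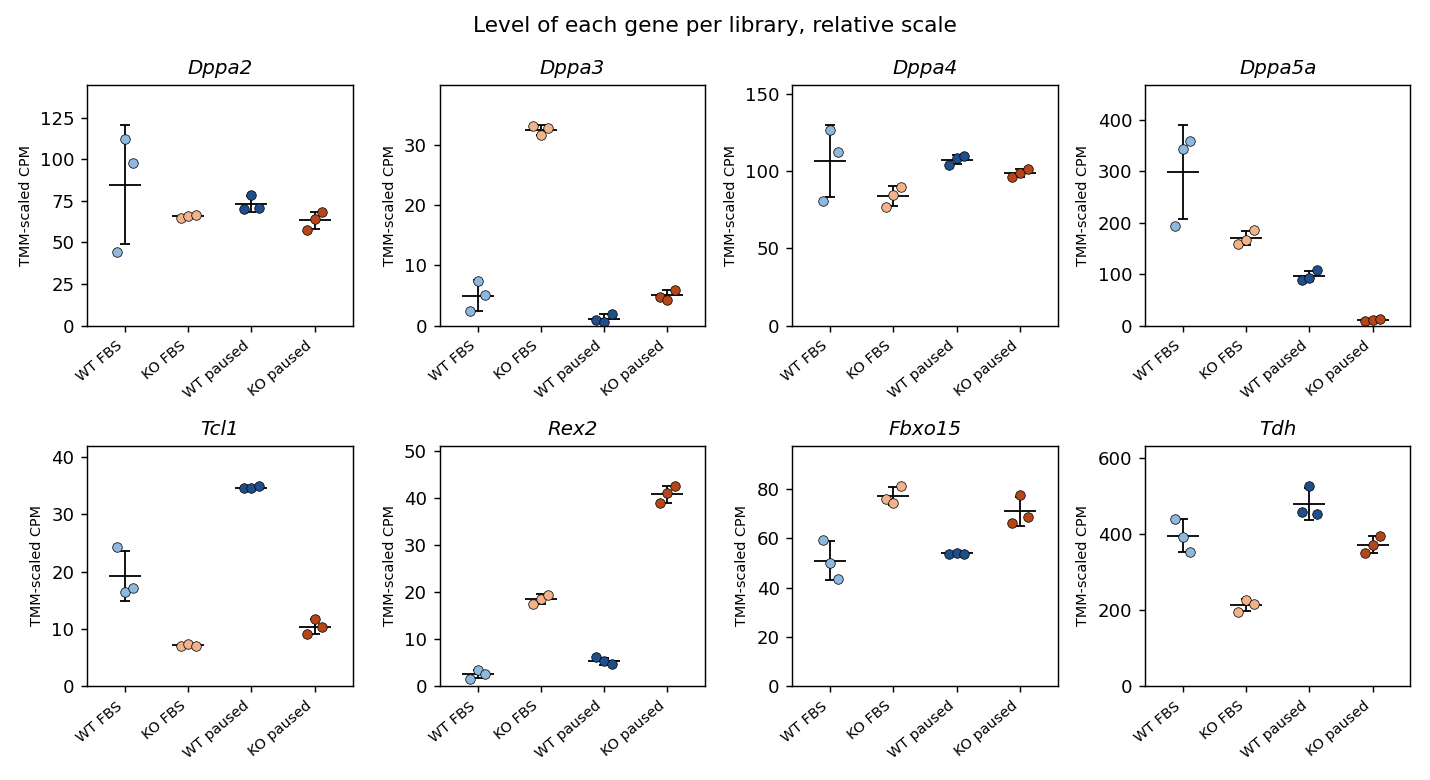
TMM-scaled CPM of each gene (vertical axes, starting at 0) in the 4 groups. Points are libraries in the order of replicates 1 to 3, and bars are the mean ± SD of 3. Dppa2 and Dppa4 stay within 1.34-fold and 1.28-fold between their highest and lowest group means, while Dppa3 spans 28.8-fold and Dppa5a 26.4-fold.

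Dppa5a, the RNA-binding protein gene, fell with pausing in both genotypes and far more in the knockout. Its level was 194, 343 and 360 CPM in FBS and 89.1, 93.1 and 107 when paused in WT cells (replicates 1 to 3), against 159, 167 and 185 in FBS and 9.60, 11 and 13.4 when paused in KO cells. No 2 groups overlapped, and the 3 KO paused libraries lay far below all others. On the relative scale the change with pausing was -1.63 ± 0.20 log2 (SE) in WT cells (edgeR, Benjamini-Hochberg (BH) adjusted p = 0.000101) and -3.90 ± 0.22 in KO cells (adjusted p = 1.54e-07). The difference between these changes was itself called, at -2.27 ± 0.28 (edgeR adjusted p = 0.00024), and stayed called on the per-cell scale at -1.99 ± 0.46 (adjusted p = 0.00117). Per cell, the change was -2.67 in WT and -4.66 in KO cells, the latter a 25.3-fold lower level. Without WT FBS replicate 1 the relative difference was -2.05 (edgeR adjusted p = 2e-09).

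The genotypes also differed in Dppa5a. In FBS it was lower in KO cells, at -0.81 ± 0.19 log2 on the relative scale (edgeR adjusted p = 0.00310), while the per-cell value of -0.71 ± 0.32 did not pass (adjusted p = 0.0792) and passed without WT FBS replicate 1 (-0.97, adjusted p = 0.0229). When paused it was lower in KO cells, at -3.08 ± 0.22 (edgeR adjusted p = 2.71e-07), and at -2.71 per cell. The authors' deposited table of log2 values gave a change with pausing of -2.62 in WT and -4.52 in KO cells.

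Its KH-domain relatives and its neighbourhood had other profiles. Ooep, an egg gene separated from Dppa5a by 7931 bases, stood at 33.5 ± 8.59 CPM in FBS and 23.2 ± 2.77 when paused in WT cells, against 7.79 ± 1.39 in FBS and 7.72 ± 0.946 when paused in KO cells (mean ± SD, n = 3). It was lower in KO cells in both media (-2.11 and -1.59 log2) and its change with pausing in KO cells was -0.01 ± 0.20 (edgeR adjusted p = 0.960), or -0.78 per cell, near the median of all genes. Khdc3, which encodes a partner of OOEP in the egg, went the other way, from 16.5 ± 1.46 CPM in KO FBS to 104 ± 12.3 in KO paused cells, with 3.68 ± 1.44 and 3.28 ± 1.47 CPM in the WT groups (mean ± SD, n = 3). Its change with pausing in KO cells was 2.65 ± 0.23 log2 (edgeR adjusted p = 3.65e-06), and 1.94 per cell. Of the 40 tested genes nearest to Dppa5a, the median change was -0.06 log2 with pausing in WT and 0.02 in KO cells.

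Dppa3, the protector against DNA methylation, was high in one group only, KO FBS. Its counts were 25, 260 and 145 in FBS and 9, 6 and 43 when paused in WT libraries, against 770, 894 and 1027 in FBS and 98, 92 and 196 when paused in KO libraries. In CPM these were 2.41, 7.41 and 5.10 in FBS and 0.876, 0.559 and 1.94 when paused in WT cells, against 33.1, 31.6 and 32.8 in FBS and 4.80, 4.28 and 5.97 when paused in KO cells. Only KO paused and WT FBS libraries overlapped. Relative to the typical gene, Dppa3 fell with pausing by 2.04 ± 0.40 log2 in WT cells (edgeR adjusted p = 0.00207) and by 2.68 ± 0.31 in KO cells (adjusted p = 2.84e-05). It was higher in KO cells by 2.62 ± 0.31 in FBS (edgeR adjusted p = 1.45e-05) and by 1.98 ± 0.40 when paused (adjusted p = 0.0012). Both pausing effects and both genotype effects were called per cell as well. The difference between the pausing effects, -0.64 ± 0.52 log2, did not pass (edgeR adjusted p = 0.432) and was 0.18 without WT paused replicate 3, which had the most Dppa3 of its group.

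Uhrf1, whose protein DPPA3 holds off chromatin, stood at 369 ± 11.2 CPM in FBS and 299 ± 31.7 when paused in WT cells, against 213 ± 25 in FBS and 211 ± 16.3 when paused in KO cells (mean ± SD, n = 3). It was lower in KO cells, at -0.79 ± 0.11 log2 in FBS (edgeR adjusted p = 4.69e-05) and at -0.50 ± 0.11 when paused. Over all tested genes on the relative scale, 38.2% were called for pausing in WT and 42.7% in KO cells, in either direction. Between genotypes 57.8% were called in FBS and 51.8% when paused. Per cell these shares were 69.9% and 48.2% for pausing, and 28.9% and 32.8% between genotypes. The counts of every list stand beside these shares. Of the 7 tested genes for writing and erasing DNA methylation, 3 rose and 2 fell with pausing in WT cells, and 2 rose and 1 fell in KO cells. In the knockout, 2 were higher and 5 lower in FBS, and 2 higher and 4 lower when paused. Tet3, an oxidase of methylated cytosine, rose with pausing by 0.79 log2 in WT and 1.52 in KO cells. Tet2 rose by 0.86 in WT cells and had a change of -0.32 ± 0.15 in KO cells (edgeR adjusted p = 0.110). Per cell, 4 of the 7 fell with pausing in WT cells, and 1 rose (Tet3, by 0.78) and 4 fell in KO cells. In the knockout 2 were then higher and 1 lower in FBS, and 3 higher and 1 lower when paused, so the balance of higher and lower calls depended on the scale. The per-cell values in WT cells, -0.26 for Tet3 and -0.19 for Tet2, did not pass, and neither did the lower Uhrf1 of KO cells (-0.67 in FBS, edgeR adjusted p = 0.108).

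Dppa2 and Dppa4, the paired promoter-binding genes, had the smallest spread of group means among the 8 on the relative scale. Per cell the smallest was that of Tdh (1.69-fold), against 2.01-fold for Dppa4 and 2.35-fold for Dppa2. Dppa2 was 44.2, 112 and 98.0 CPM in FBS and 69.9, 78.4 and 70.9 when paused in WT cells, against 64.8, 66.2 and 66.5 in FBS and 57.7, 64.1 and 68.1 when paused in KO cells. Dppa4 was 80.9, 126 and 112 CPM in FBS and 104, 108 and 110 when paused in WT cells, against 77.1, 84.6 and 90.0 in FBS and 96.5, 99.0 and 102 when paused in KO cells. The widest spread of both genes was within WT FBS, where replicate 1 was lowest. Changes of Dppa2 on the relative scale lay between -0.37 ± 0.24 (genotype in FBS) and -0.06 ± 0.24 log2 (pausing in KO), and none passed. Dppa4 was called in 1 comparison, lower in KO than in WT cells in FBS, at -0.35 ± 0.13 (edgeR adjusted p = 0.0359). Leaving out replicate 1 or 2 of KO FBS, or replicate 2 or 3 of WT FBS, ended that call, with values of -0.35 to -0.21 and edgeR adjusted p of 0.0789 to 0.170.

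The relative results of both genes depended on which WT FBS library was left out. Without replicate 1, Dppa2 fell by 0.54 log2 with pausing in WT cells (edgeR adjusted p = 4.93e-06) and was lower in KO cells in FBS, at -0.65 (adjusted p = 1.59e-07), and Dppa4 was lower in KO cells in FBS, at -0.48 (adjusted p = 3.89e-06). The differences between the pausing effects were then 0.46 for Dppa2 (edgeR adjusted p = 0.00157) and 0.38 for Dppa4 (adjusted p = 0.00409). Without WT FBS replicate 2 instead, the Dppa2 change with pausing in WT cells was 0.02 (edgeR adjusted p = 0.956). Its difference between the pausing effects was then -0.08 (edgeR adjusted p = 0.895). Per cell, over all libraries, Dppa2 fell with pausing by 1.24 ± 0.32 log2 in WT and 0.81 ± 0.32 in KO cells, and Dppa4 by 1.01 ± 0.32 in WT cells, close to the median of all genes in each case. The value for Dppa4 in KO cells, -0.53 ± 0.32, did not pass (edgeR adjusted p = 0.151). Over the 12 libraries Dppa2 and Dppa4 were the most alike of the 8 genes. The root mean square difference of their centred log2 CPM was 0.21, against 0.357 to 3.14 for the other pairs. The root mean square about the gene's own mean was 0.202 for Dppa4, the lowest of the 8, and 0.327 for Dppa2, against 0.278 for Fbxo15. The difference between Dppa2 and Dppa4 was thus near the spread of Dppa4 itself, so its small size goes in part with the flat profile of Dppa4.

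Most genes that need DPPA2 and DPPA4 in ES cells were too low to test. Of 21 such genes, 19 were in the count table and 5 had enough counts to be tested. The 14 others, among them Dux and 5 Zscan4 copies, had at most 2 counts over the 3 WT FBS libraries, 17 over KO FBS, 3 over WT paused and 8 over KO paused. Of the 5 tested genes, on the relative scale, 2 rose and 2 fell with pausing in WT cells, 3 fell in KO cells, and 4 were higher in KO than in WT cells in FBS. When paused, 2 were higher and 2 lower in KO cells. The pausing effect was lower in KO cells for 4 of 5, beside 17.9% of all genes called in either direction. Per cell, 2 fell with pausing in WT and 3 in KO cells, 2 were higher in KO cells in FBS, and 2 were higher and 2 lower when paused. The per-cell pausing effect was lower in KO cells for 1, beside 4.7% of all genes called in either direction. Syce1, a component of the meiotic synaptonemal complex, went from 11.1 ± 0.542 to 19.5 ± 2.25 CPM in WT and from 14.7 ± 0.906 to 4.67 ± 0.766 CPM in KO cells (mean ± SD, n = 3), a difference between the pausing effects of -2.46 ± 0.19 log2 (edgeR adjusted p = 1.24e-05) that was -2.16 per cell (adjusted p = 0.00066). Mael, a germline gene of the transposon-silencing pathway, fell by 1.04 log2 in WT and 3.33 in KO cells. Its levels were low, from 2.25 to 1.06 CPM in WT and from 2.09 to 0.204 CPM in KO cells. The per-cell difference of its pausing effects did not pass (edgeR adjusted p = 0.064). Trap1a was higher in KO cells, by 1.98 log2 in FBS and 0.78 when paused. Nkx2-5 was too, by 2.47 and 2.30, at a mean of only 1.15 CPM in KO paused cells.

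Tcl1, the AKT cofactor, followed the genotype on both scales. It stood at 24.3, 16.4 and 17.1 CPM in FBS and 34.6, 34.5 and 35.0 when paused in WT cells, against 7.0, 7.45 and 7.09 in FBS and 9.11, 11.7 and 10.3 when paused in KO cells. All 4 groups were apart, and every WT library was above every KO library. Tcl1 was lower in KO cells, at -1.40 ± 0.15 log2 in FBS (edgeR adjusted p = 5.89e-06) and at -1.74 ± 0.15 when paused (adjusted p = 1.19e-06), and at -1.30 and -1.35 per cell. It rose with pausing relative to other genes, by 0.87 ± 0.14 in WT cells (edgeR adjusted p = 0.000708) and 0.53 ± 0.15 in KO cells (adjusted p = 0.0121). The KO value was 0.43 without KO paused replicate 2 (edgeR adjusted p = 0.0598). Per cell its changes with pausing were -0.17 ± 0.33 in WT and -0.22 ± 0.33 in KO cells and did not pass (adjusted p = 0.645 and 0.592). The difference of the relative pausing effects, -0.34 ± 0.20, did not pass (edgeR adjusted p = 0.281), and passed without WT FBS replicate 1 at -0.54 (adjusted p = 0.00476).

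Among genes related to Tcl1 by sequence or by the AKT pathway, the 5 Tcl1b copies had too few counts to be tested, at most 12 counts over the libraries of any group. Akt1, the kinase that TCL1 binds, was higher in KO cells by 0.96 ± 0.15 log2 in FBS (edgeR adjusted p = 0.00013) and 0.90 ± 0.15 when paused, the opposite direction to Tcl1. Per cell the Akt1 changes by genotype were 1.08 and 1.27 and passed. On the relative scale Akt2 and Mtcp1 did not pass in any of the 4 comparisons of pausing and genotype.

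Rex2, the zinc finger gene, was high where Tcl1 was low by genotype, and rose with it under pausing on the relative scale. It stood at 1.64, 3.48 and 2.67 CPM in FBS and 6.13, 5.31 and 4.65 when paused in WT cells, against 17.6, 18.6 and 19.5 in FBS and 39.0, 41.0 and 42.5 when paused in KO cells. The groups did not overlap, and the mean of KO paused was 15.7-fold that of WT FBS. Relative to other genes Rex2 was higher in KO cells by 2.74 ± 0.18 log2 in FBS (edgeR adjusted p = 1.58e-07) and 2.95 ± 0.18 when paused (adjusted p = 8.49e-08). It rose with pausing by 0.93 ± 0.20 in WT (edgeR adjusted p = 0.00315) and 1.14 ± 0.15 in KO cells (adjusted p = 0.000103). Per cell the genotype changes were 2.91 and 3.34, and the pausing changes, -0.05 ± 0.36 and 0.38 ± 0.33, did not pass (edgeR adjusted p = 0.905 and 0.319).

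Zfp600, the gene whose promoter differed from that of Rex2 by 4 bases, gave 1.64 ± 0.673 CPM in FBS and 4.26 ± 0.773 when paused in WT cells, against 15.1 ± 0.711 in FBS and 41.8 ± 4.78 when paused in KO cells (mean ± SD, n = 3). Its genotype changes were 3.07 ± 0.21 and 3.33 ± 0.20 log2, close to those of Rex2, and reads shared by the 2 genes may enter both rows. Among the 40 tested genes nearest to Rex2, on the relative scale, 21 rose and 1 fell with pausing in WT cells, with a median of 0.65 log2, and 23 rose and 6 fell in KO cells, with a median of 0.58. The same neighbourhood was higher in KO cells by a median of 0.42 in FBS and 0.11 when paused. Neighbourhoods of the other 7 genes had pausing medians between -0.09 and 0.23 log2. Many neighbours of Rex2 are related zinc finger genes, so these rows are not independent of each other.

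Fbxo15, the F-box gene, was higher in the knockout, and relative to other genes its changes with pausing did not pass. Its level was 59.2, 50.1 and 43.4 CPM in FBS and 53.8, 54.2 and 53.6 when paused in WT cells, against 76.0, 74.3 and 81.3 in FBS and 66.3, 77.6 and 68.8 when paused in KO cells. Every KO library was above every WT library. The genotype change was 0.61 ± 0.11 log2 in FBS (edgeR adjusted p = 0.000415) and 0.40 ± 0.11 when paused (adjusted p = 0.0084), and per cell 0.71 (adjusted p = 0.0774) and 0.78 (adjusted p = 0.0445). Changes with pausing were 0.09 ± 0.11 in WT and -0.12 ± 0.11 in KO cells (edgeR adjusted p = 0.560 and 0.374). Their difference was -0.21 ± 0.15 (edgeR adjusted p = 0.374) and passed without WT FBS replicate 1 at -0.34 (adjusted p = 0.0155). Per cell it fell with pausing by 0.93 ± 0.32 in WT and 0.86 ± 0.32 in KO cells, beside medians of -1.05 and -0.72 for all genes. The core SCF subunits Skp1a, Cul1 and Rbx1 all fell with pausing in WT cells relative to other genes, by 0.61, 0.36 and 0.49 log2, and Skp1a also fell in KO cells, by 0.86. Per cell all 3 fell in both genotypes, beside 69.9% of all genes called in WT and 48.2% in KO cells.

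Tdh, the threonine-breakdown enzyme, was low in one group, KO FBS, on the relative scale. It stood at 441, 393 and 354 CPM in FBS and 459, 527 and 453 when paused in WT cells, against 196, 228 and 216 in FBS and 351, 371 and 395 when paused in KO cells. The 3 KO FBS libraries lay below all others, and KO paused libraries overlapped those of WT FBS. Tdh rose with pausing in KO cells by 0.80 ± 0.10 log2 (edgeR adjusted p = 6.99e-05). The value in WT cells was 0.28 ± 0.10 and missed the threshold (edgeR adjusted p = 0.0508), but passed without WT FBS replicate 1 (0.35, adjusted p = 0.00119). Tdh was lower in KO cells, at -0.89 ± 0.10 in FBS (edgeR adjusted p = 1.38e-05) and at -0.37 ± 0.10 when paused (adjusted p = 0.00996), where the call was lost without WT paused replicate 2 (-0.29, adjusted p = 0.0512) and the per-cell value did not pass (0.00044 ± 0.33). The difference between the pausing effects was 0.53 ± 0.15 log2 (edgeR adjusted p = 0.0265).

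This difference for Tdh was less firm than that for Dppa5a. The call was lost when any of 6 libraries was left out, namely replicates 1 and 3 of KO FBS, 1 and 3 of WT paused, and 2 and 3 of KO paused, with values of 0.47 to 0.54 and adjusted p up to 0.0765. On the per-cell scale it was 0.76 ± 0.46 and did not pass (edgeR adjusted p = 0.433). Per cell, Tdh stood at 261 ± 21.1 counts per 10000 ERCC counts in FBS and 158 ± 48.7 when paused in WT cells, against 155 ± 63.4 in FBS and 158 ± 21.8 when paused in KO cells (mean ± SD, n = 3). It fell with pausing in WT cells by 0.73 ± 0.33 log2 (edgeR adjusted p = 0.0386) and had a change of 0.03 ± 0.33 in KO cells (adjusted p = 0.947). The direction of the Tdh change in WT cells thus depended on the scale.

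Gcat, which encodes the enzyme that turns the product of TDH into glycine, had the same order of groups as Tdh. Its level was 30.1 ± 4.69 CPM in FBS and 35.0 ± 5.97 when paused in WT cells, against 11.3 ± 1.01 in FBS and 23.7 ± 1.43 when paused in KO cells (mean ± SD, n = 3). Gcat rose with pausing in KO cells by 1.06 ± 0.15 log2 (edgeR adjusted p = 0.000107), had a change of 0.21 ± 0.14 in WT cells (adjusted p = 0.263), and was lower in KO cells, at -1.42 in FBS and -0.57 when paused. Per cell these genotype values were -1.29 (edgeR adjusted p = 0.000727) and -0.21, which did not pass (adjusted p = 0.657). The difference of its pausing effects was 0.85 ± 0.20 (edgeR adjusted p = 0.0128). Per cell, Gcat fell with pausing in WT cells by 0.78, and its values of 0.29 for pausing in KO cells and 1.08 for the difference did not pass (edgeR adjusted p = 0.452 and 0.196). Gldc, the decarboxylase of the glycine cleavage system, did otherwise: it fell with pausing by 1.10 and 0.95 log2 and was higher in KO cells by 1.58 and 1.73. Of the 10 tested genes of threonine, glycine and methyl-group metabolism, 5 fell with pausing in WT cells, and 1 rose and 3 fell in KO cells. In the knockout 1 was higher and 5 lower in FBS, and 1 higher and 4 lower when paused. Per cell, all 10 fell with pausing in WT cells, beside 69.9% of all genes called, and 7 in KO cells, beside 48.2%. Their median per-cell changes were -1.34 and -1.02 log2, against -1.05 and -0.72 for all tested genes. In the knockout, per cell, 1 was higher and 1 lower in FBS and 1 higher and 0 lower when paused, beside 28.9% and 32.8%.

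**Figure D2:**
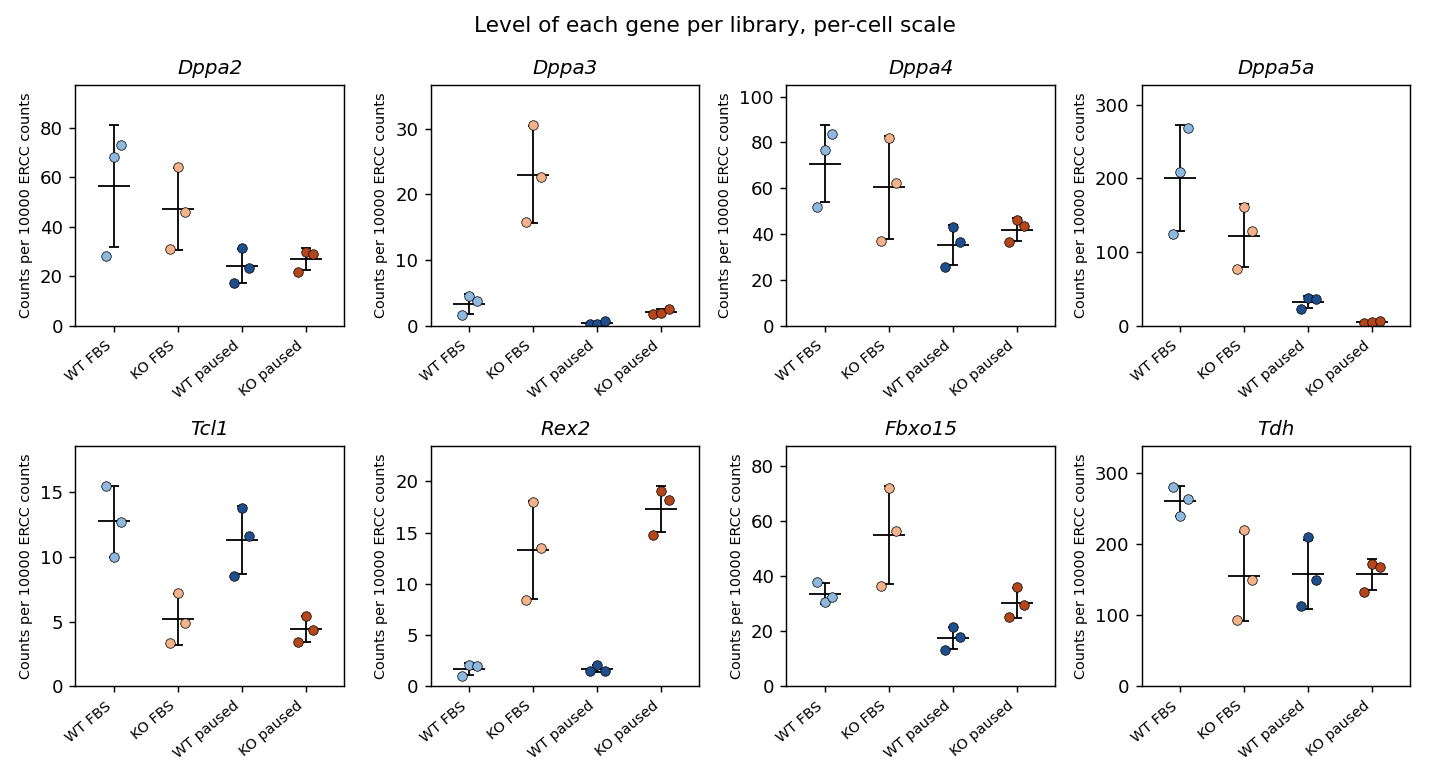
Counts of each gene per 10000 ERCC counts (vertical axes, starting at 0) in the 4 groups, with points for libraries and bars for the mean ± SD of 3. Tcl1 and Rex2 libraries separate by genotype and overlap between FBS and paused cells of each genotype, and Tdh is highest in WT FBS at 261.

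Set side by side, the 8 genes split. With pausing in WT cells on the relative scale, 4 of 8 were called, Tcl1 and Rex2 higher and Dppa3 and Dppa5a lower, while 38.2% of all tested genes were called. In KO cells 5 were called, the same 4 and Tdh, beside 42.7% of all genes. In the knockout 7 were called in FBS (Dppa3, Rex2 and Fbxo15 higher, and Dppa4, Dppa5a, Tcl1 and Tdh lower), beside 57.8% of all genes. When paused 6 were called, the same without Dppa4, beside 51.8%. The difference between the pausing effects was called for Dppa5a and Tdh, 2 of 8, beside 17.9% of all genes. With calls this common among all genes, the counts say little about the 8 as a set, and the median changes of the 8 were 0.05, 0.09, -0.36, -0.16 and -0.02 log2 in these 5 comparisons, beside -0.02, 0.03, -0.04, 0.01 and 0.09 for all tested genes. Without WT FBS replicate 1, pausing in WT cells was called for 6 of 8 and the difference of the pausing effects for 6 of 8, and the calls over all genes rose to 9219 from 5832 and to 6463 from 2731.

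On the per-cell scale, 6 of 8 fell with pausing in WT cells, all but Tcl1 and Rex2, beside 69.9% of all genes called. In KO cells Dppa2, Dppa3, Dppa5a and Fbxo15 fell, 4 of 8 beside 48.2%. In FBS, 3 differed between genotypes (Dppa3 and Rex2 higher and Tcl1 lower in KO cells), beside 28.9% of all genes, and when paused 5 did (Dppa3, Rex2 and Fbxo15 higher, Dppa5a and Tcl1 lower), beside 32.8%. Dppa5a alone of the 8 was called for the difference of the pausing effects, beside 4.7% of all genes. Per-cell values of different genes share each library's ERCC total, and gene counts per ERCC count varied most in KO FBS. Several per-cell calls were lost when 1 of a number of libraries was left out, with changes in the same direction. With pausing in KO cells, leaving out replicate 2 or 3 of KO FBS or any KO paused library ended the call of Dppa2 (-0.89 to -0.52), and leaving out replicate 2 or 3 of KO FBS or replicate 1 or 3 of KO paused ended that of Fbxo15 (-0.85 to -0.62). With pausing in WT cells, the call of Tdh was lost without any WT FBS library or WT paused replicate 1 or 3 (-0.73 to -0.54), and that of Fbxo15 without WT paused replicate 1 (-0.77). The higher Fbxo15 of paused KO cells was lost without any KO paused library or WT paused replicate 1 or 3 (0.62 to 0.90). Other calls appeared: without KO FBS replicate 2, Dppa5a (-0.97) and Tdh (-1.10) were lower in KO cells in FBS, and without KO FBS replicate 1, Fbxo15 was higher (0.94) and Dppa4 fell with pausing in KO cells by 0.78.

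**Figure D3:**
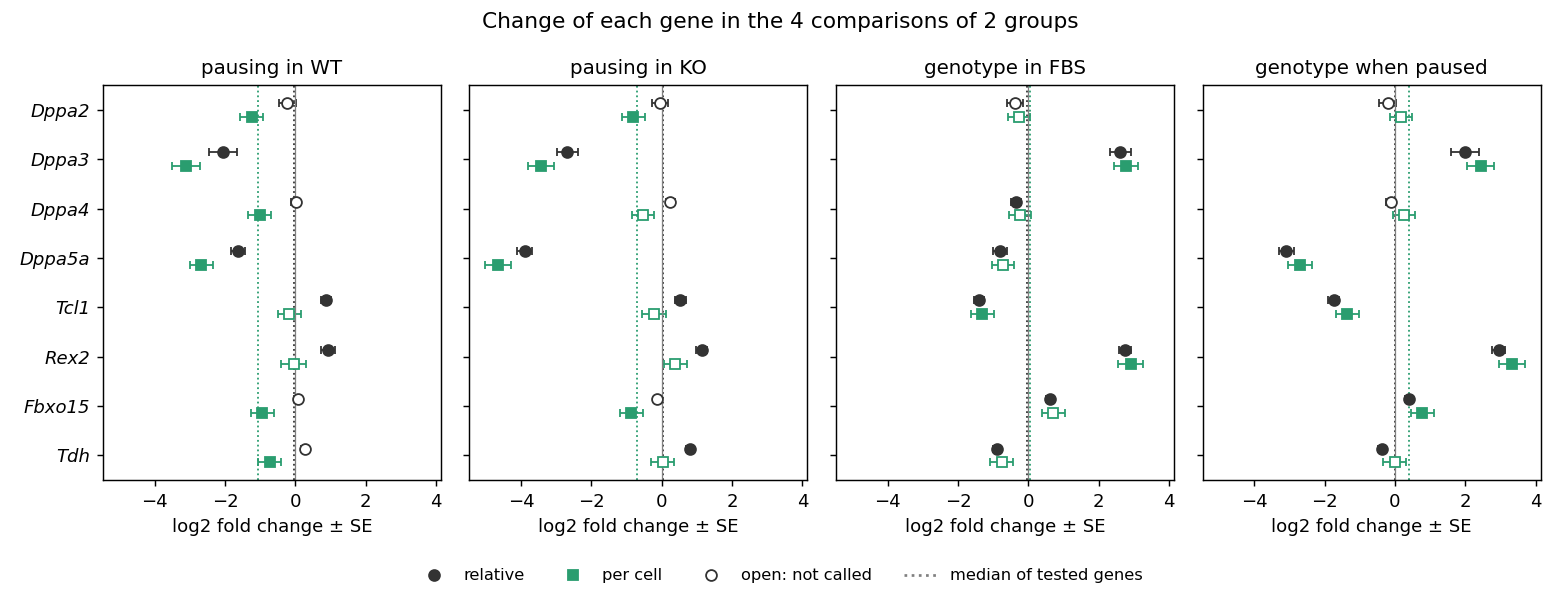
Log2 fold change ± SE (horizontal axes) of each gene in the 4 comparisons, on the relative scale (circles) and per cell (squares). Filled symbols passed a BH adjusted p of 0.05, and dotted lines mark the median of all tested genes on each scale: the scales diverge most for pausing in WT, where the per-cell median is -1.05.

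**Figure D4:**
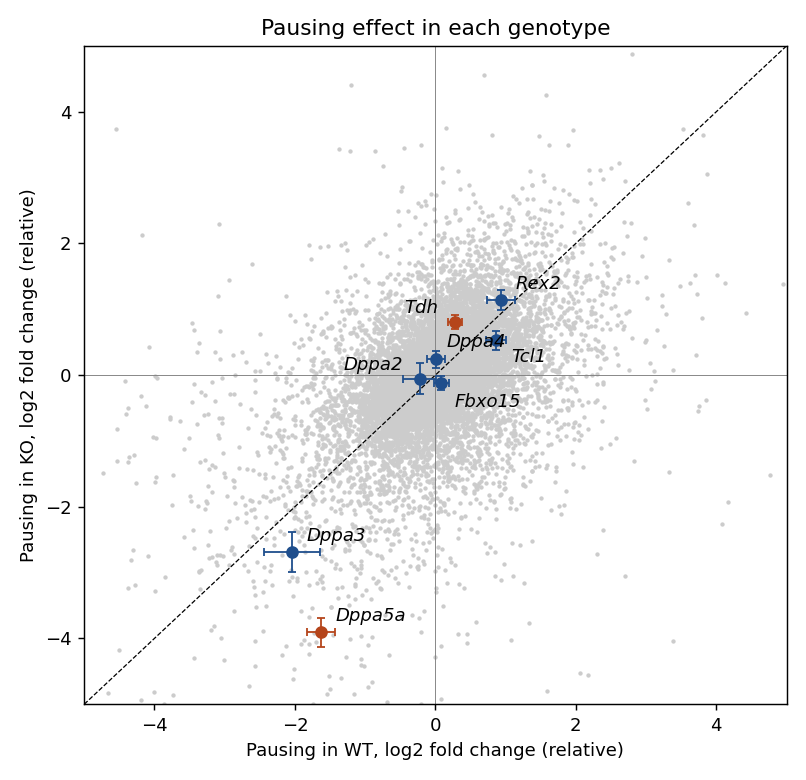
Relative log2 fold change with pausing in WT (horizontal) and KO cells (vertical). Grey points are the tested genes within 5 log2 units on both axes (37 lie outside), coloured points are the 8 genes ± SE, and Dppa5a and Tdh, called for the difference of the effects, are red. Dppa5a lies below the dashed line of equal effects and Tdh above it.

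The genes most like each member over the 12 libraries were chosen by the smallest root mean square difference of centred log2 CPM among 9975 genes. For Dppa3 they were Magohb (0.477), Rpl10l (0.485) and Clu (0.538), all highest in KO FBS. Rpl10l, a testis-enriched copy of a ribosomal protein gene, went from 4.72 ± 1.00 CPM in WT FBS to 62.2 ± 7.63 in KO FBS and from 1.48 ± 0.421 in WT paused to 7.91 ± 0.668 in KO paused cells (mean ± SD, n = 3). For Dppa5a they were Pla2g1b (0.358), Stra8 (0.520) and Fam129a (0.563). Stra8, the retinoic-acid-induced gene of meiotic entry, stood at 16.0 ± 3.59 CPM in FBS and 3.84 ± 2.46 when paused in WT cells, against 5.57 ± 1.35 in FBS and 0.624 ± 0.123 when paused in KO cells. For Tcl1 they were Pknox2 (0.199), Mllt10 (0.205) and Ildr1 (0.206), and for Rex2 Fzd1 (0.280), Zfp600 (0.283) and Slc22a23 (0.330). For Tdh they were Csad (0.0976), Dmd (0.0988) and Stx5a (0.110), and for Fbxo15 Paip1, Gyltl1b and Entpd7 (0.0838 to 0.0898). For Dppa2 they were Tbl3, Hsp90b1 and Srebf2 (0.104 to 0.107), and for Dppa4 Arfip2, Diablo and Rps19 (0.0527 to 0.0687). Small differences for the last genes go with their flat profiles.

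Other genes restricted to ES cells and the regulators of pluripotency gave a similarly mixed picture. Of 12 other ES-restricted genes, on the relative scale, 4 rose with pausing in WT cells (38.2% of all genes were called), 4 rose and 4 fell in KO cells, and in the knockout 5 were higher and 3 lower in FBS and 2 higher and 5 lower when paused. Nanog rose with pausing in WT cells by 0.91 ± 0.13 log2 (edgeR adjusted p = 0.000271) and fell in KO cells by 0.40 ± 0.13 (adjusted p = 0.0239). Per cell its values were -0.12 (edgeR adjusted p = 0.734) and -1.16 (adjusted p = 0.00206). Of 12 pluripotency regulators, 4 rose with pausing in WT cells and 6 rose and 2 fell in KO cells. In the knockout 2 were higher and 9 lower in FBS, and 8 were lower when paused, with medians of -1.04 and -0.82 log2. Per cell, 8 of the 12 ES-restricted genes and 6 of the 12 regulators fell with pausing in WT cells, beside 69.9% of all genes called. In the knockout, per cell, 1 regulator was higher and 6 lower in FBS (28.9% of all genes were called). When paused 1 was higher and 4 lower (32.8% were called), with a median of -0.45. Klf5 and Tfcp2l1 were lower in KO cells in FBS, at -2.87 and -2.68, and on the relative scale Tcl1, Tdh and Dppa5a were lower there too, while Dppa3, Rex2 and Fbxo15 were higher.

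The sequence GGACT, the most frequent setting of m6A, was counted on the sense strand of one annotated transcript per gene. It occurred 3 times in Fbxo15 and in Tdh, once in each of Dppa2, Tcl1 and Rex2, and not in Dppa3, Dppa4 or Dppa5a. Among coding transcripts of similar length, 33% had none at the length of Dppa3, 15.9% at that of Dppa4 and 46.4% at that of Dppa5a. On the relative scale in FBS, genes without the sequence went both ways in the knockout: Dppa3 was higher (2.62 log2), and Dppa5a (-0.81) and Dppa4 (-0.35) were lower. Genes with it also went both ways, with Rex2 higher (2.74) and Tcl1 lower (-1.40). The count is a description of letters and no m6A was measured in these libraries.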

How the data were processed

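The authors deposited raw read counts per gene symbol and a table of log2 values scaled to cell number. Tools listed in the submitters' processing notes are Subread 1.5.0 with featureCounts, Trim Galore 0.4.0 and edgeR 3.32.1, with the build mm10. The aligner, annotation and strandedness of counting were not given in the sources used here. Deposited log2 values of 3390 well-counted genes (500 or more) were log2(count + 0.5) shifted by one constant per library, and they were used only where named. Deposited counts of all 12 libraries were fitted with edgeR 4.0.16 (R 4.3.3; quasi-likelihood, robust, 4 group means). TMM factors were computed over all genes (relative scale) or over the 92 ERCC rows (per-cell scale), with the default filter (minimum count 10, minimum total 15) and a BH adjusted p of 0.05 over all 15281 genes. The steps were tested on simulated data. Alternatives were DESeq2 1.42.0, other scaling, no filter, a non-robust fit, separate fits of the groups compared, a replicate block and leaving out each library. TMM factors computed after the filter were added after seeing the data. Of the gene rows, 24027 matched an annotated gene and 394 did not.

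The members and gene lists were chosen with earlier results of these data known. Besides the 8 members, the text names up to 4 members per list with the lowest p, direct partners of members, and the 3 genes most like each member (mean of at least 5 CPM, predicted names left out). The Y-linked genes were named after their values were seen. No set test was made. Not every gene of the lists is reported here.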

Additional observations from a re-analysis of the deposited data

Results flagged for a closer look

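2 results were flagged because the response to pausing differed between the genotypes by a test of the difference itself. These were 2 of the 8 genes, beside 17.9% of all tested genes called for the same difference on the relative scale. For Dppa5a, the pausing effect in KO cells minus that in WT cells was -2.27 log2 on the relative scale (edgeR, BH adjusted p = 0.00024), and all 3 KO paused libraries lay below every library of the other groups. For Tdh the same difference was 0.53 log2 (edgeR adjusted p = 0.0265), with the relative rise in KO cells starting from the low level of KO FBS. That call was lost when any of several single libraries was left out. Per cell the Tdh difference was 0.76 and did not pass (edgeR adjusted p = 0.433), and its change with pausing in KO cells was 0.03. No explanation was tested for either.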

How the results depend on the processing

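Over the log2 changes of the 8 genes in 5 comparisons on 2 scales, 985 of 1080 alternative values kept their direction and call, 37 lost the call, 21 gained it and 37 changed sign. Leaving out single libraries moved several counts. On the relative scale the genes called ranged from 4171 to 9219 for pausing in WT and from 1819 to 6463 for the difference of the pausing effects, both highest without WT FBS replicate 1, and the members called for that difference from 1 to 6. Per cell, the genes called ranged from 397 to 1718 for the difference and from 4112 to 10459 for pausing in KO cells, and the members called from 2 to 5 for pausing in KO and from 3 to 5 for genotype in FBS. A fit of the groups compared alone called 2769 genes for pausing in WT (relative), 2916 genes for genotype in FBS (per cell) and 2 members for pausing in KO (per cell). The cause was not tested. That fit also ended the call of Dppa4 between genotypes in FBS (-0.35, edgeR adjusted p = 0.118).

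The labels do not say that same-numbered libraries share a culture or day, and not every pair of them correlated at over 0.1, so they were not treated as paired. Their deviations correlated at -0.022 to 0.27, 10 of 18 pairs were over 0.1 (all 6 of replicate 1, at 0.131 or more), and 10 of 12 libraries matched best with one of their own number, a hint from the data and not from the design. With the replicate number as a block, 1970 genes were called for the difference of the pausing effects per cell, 2 members for the same difference and 6 members for genotype in FBS per cell. The Tdh difference was then 0.88 per cell (edgeR adjusted p = 0.038).

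None of the values that changed sign was called in the fit of all libraries, and their ranges without single libraries were as follows. On the relative scale, Dppa2 ranged from -0.079 to 0.46 for the difference, -0.11 to 0.0054 for pausing in KO and -0.54 to 0.023 for pausing in WT, and Dppa3 from -1.03 to 0.18 for the difference. Dppa4 with pausing in WT ranged from -0.16 to 0.15, and was -0.0051 in the fit of the groups compared and -0.0023 with RLE factors. Fbxo15 ranged from -0.018 to 0.19 for pausing in WT and Rex2 from -0.058 to 0.37 for the difference. Per cell, Dppa2 ranged from -0.024 to 0.38 for genotype when paused, Dppa3 from -0.68 to 0.48 for the difference, Dppa4 from -0.51 to 0.026 for genotype in FBS and Fbxo15 from -0.15 to 0.31 for the difference. Rex2 with pausing in WT ranged from -0.27 to 0.21, and was 0.0073 with the replicate block. Tcl1 ranged from -0.28 to 0.27 for the difference, 0.026 with the block, and from -0.45 to 0.10 for pausing in KO. Tdh ranged from -0.19 to 0.24 for genotype when paused and from -0.23 to 0.37 for pausing in KO, and with ERCC totals without a TMM factor was -0.0046 and -0.0055. Depth limits Dppa3 most, with 6 to 43 counts in WT paused libraries.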
